A study of Homo sapiens with 6 samples.

Results

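The genes described here are 48 genes of DNA replication and S phase, chosen by name from the 57820 genes of the deposited table, and all 48 were found on a single row each. They were read in U2OS cells, an established human osteosarcoma line, grown as 2 groups of 3 libraries: cells treated for 4 h with 5 µM NMS-873 dissolved in DMSO, and cells treated for 4 h with 0.05% DMSO, the solvent. The ATPase VCP, also named p97, draws ubiquitylated proteins away from their partners or from chromatin, and NMS-873 blocks it at an allosteric site. Stranded mRNA libraries of all 6 samples were pooled and sequenced on a single flowcell. Nothing in the labels says that replicates were grown as separate cultures. The p-values therefore rest on the spread between these libraries, which may be technical. That spread was largely pooled over genes of similar level, not taken from each gene alone.

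DNA replication starts at origins that have been licensed in G1. The origin recognition complex (ORC), with the loaders CDC6 and CDT1, places the MCM2 to MCM7 ring on DNA. CDC45 and the GINS complex then turn this ring into the active helicase, known as CMG, and polymerases, the sliding clamp PCNA and its loader RFC copy the strands while ribonucleotide reductase and thymidylate synthesis supply the nucleotides. VCP is known to act on this machinery at the protein level: it removes ubiquitylated CMG from chromatin when forks meet, and it extracts ubiquitylated CDT1. Many genes of this set are classical targets of the E2F transcription factors.

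The promoters of the member with the largest rise, CDC6, and of the member with the largest fall, ORC1, are shown because the results turn on this contrast between 2 licensing genes. They run from 250 bases before to 50 after the gene's start, 5′ to 3′ on the gene's strand, in RefSeq's sequence of build GRCh38.p14 (CDC6 at chr17:40287629-40287928, plus strand; ORC1 at chr1:52404374-52404673, minus strand). Capitals mark matches to an E2F motif (TTTGGCGC, TTTCGCGC, TTTCCCGC or TTTGCCGC) or to CCAAT, on either strand.
CDC6: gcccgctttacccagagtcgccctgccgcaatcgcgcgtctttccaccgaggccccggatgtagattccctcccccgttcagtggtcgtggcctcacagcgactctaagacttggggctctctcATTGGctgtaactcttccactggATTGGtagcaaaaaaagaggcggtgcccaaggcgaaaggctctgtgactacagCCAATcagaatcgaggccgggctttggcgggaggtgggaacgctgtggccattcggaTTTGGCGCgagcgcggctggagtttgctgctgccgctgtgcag
ORC1: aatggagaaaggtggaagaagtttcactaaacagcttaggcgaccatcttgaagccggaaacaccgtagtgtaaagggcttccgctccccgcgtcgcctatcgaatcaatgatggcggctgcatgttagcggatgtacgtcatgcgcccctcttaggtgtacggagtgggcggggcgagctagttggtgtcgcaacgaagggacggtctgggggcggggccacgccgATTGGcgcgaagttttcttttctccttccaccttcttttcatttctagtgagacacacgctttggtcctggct
The CDC6 promoter held the E2F match TTTGGCGC, whose first base is base 8 counting the start as base 1, and 3 CCAAT matches beginning at -126, -103 and -50. The ORC1 window held 1 CCAAT match, on the opposite strand and beginning at -23, and none of the E2F letters searched. Only exact spellings were searched. ATTGGCGC at that CCAAT match in ORC1, and TTTGGCGG in CDC6, each differ from TTTGGCGC by 1 letter and were not counted. The absence of a match in ORC1 therefore does not show that it lacks an E2F site.

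Reads in genes came to between 21132311 and 22188004 in the NMS-873 libraries and between 21142319 and 22488952 in the DMSO libraries. The levels below are normalised counts, that is reads divided by a size factor that the submitters' values take from added spike-in RNA, unless FPKM (reads per length) is named. On this scale the median of all 14889 genes tested was a log2 fold change of -0.10, NMS-873 over DMSO, and scaled to the genes themselves it was 0.00. NMS-873 replicate 1 stood apart: the chi-square per degree of freedom between its reads and those of NMS-873 replicates 2 and 3 was 6.84 and 7.27, against 1.72 between replicates 2 and 3. Mitochondrially encoded genes took 3.99% of its reads, against 2.50% to 2.66% in NMS-873 replicates 2 and 3 and 2.87% to 3.68% with DMSO; the part of this in the results was not tested. DMSO replicate 3 differed from DMSO replicates 1 and 2 by 3.28 and 3.34, against 1.47 between these. Of 9 osteoblast lineage markers, 4 reached a mean normalised count of 10, and their summed level was 583 to 615 FPKM with NMS-873 and 667 to 679 FPKM with DMSO, nearly all from SPARC and COL1A1; SP7, COL1A2, BGLAP, IBSP and TWIST1 were at or near 0. Summed markers of epithelial cells reached at most 4.24 FPKM with NMS-873 and 3.98 FPKM with DMSO, those of blood cells 0.148 and 0.149 FPKM, and those of endothelial cells 0.278 and 0.177 FPKM.

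After 4 h of NMS-873 most replication genes moved little, and a few moved clearly. CDC6 was 2.18-fold higher and RFC1 1.23-fold higher, while ORC1 was 1.58-fold lower, GINS1 1.42-fold lower, and FEN1, POLA2 and ORC5 were 1.25-fold, 1.25-fold and 1.29-fold lower. In all, 2 of 48 members rose and 18 fell at an adjusted p under 0.05 in limma, and 28 did not pass. Over all genes tested, 47.9% were called (14.9% rose and 33.0% fell), so the 4.17% of members that rose is below that background and the 37.5% that fell is near it. The median log2 fold change of the members was -0.10, that of the median gene, and 33 members were within 0.2 of no change. With a log2 size of at least 0.4 required as well, 1 member rose and 2 fell, where 6.35% of all genes rose and 13.7% fell. Scaled to the genes, 14 members rose and 12 fell, where 46.1% of all genes were called (25.3% rose and 20.9% fell), and the median of the members was 0.00. With equal totals 4 rose and 25 fell (all genes 16.6% and 35.7%, or 52.3% called), and after quantile normalisation 6 rose and 24 fell (all genes 20.7% and 27.6%, or 48.3% called). Without NMS-873 replicate 1, 3 members rose and 17 fell, where 2406 of all 14889 genes rose and 4182 fell. In bulk RNA, fewer cells in S phase and less of a transcript per cell cannot be told apart.

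**Figure D1:**
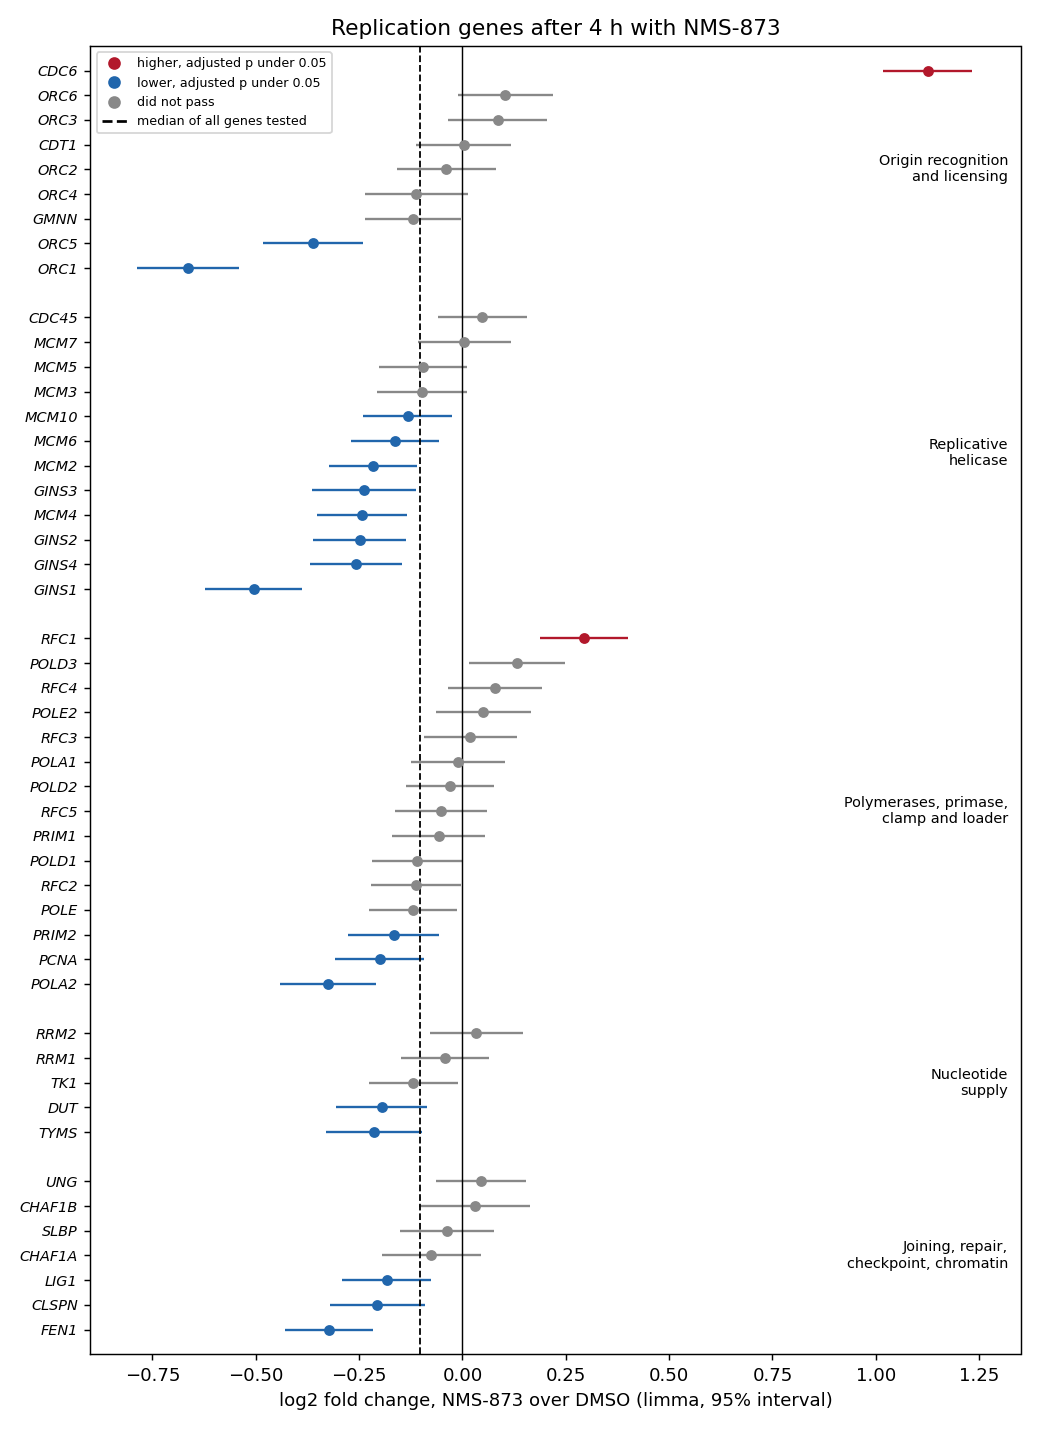
Log2 fold change of each of the 48 genes, NMS-873 over DMSO, on the deposited scale, with the 95% interval from limma and grouped by role. Colour marks genes that passed an adjusted p of 0.05, and the dashed line is the median of all genes tested (-0.10); CDC6 lies far to the right at 1.13, and ORC1 (-0.66) and GINS1 (-0.51) lie farthest to the left.

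The licensing genes held the extremes in both directions. CDC6 (ENSG00000094804.5; chromosome 17, 38443885 to 38459171, hg19), the ATPase that loads the MCM ring together with ORC, had 8590.1, 8934 and 8965 normalised counts in NMS-873 replicates 1 to 3, against 4046, 3898 and 4202 in DMSO replicates 1 to 3. Every NMS-873 library was far above every DMSO library, and the log2 fold change was 1.13 (SE 0.0543, adjusted p = 2.29e-54). This placed CDC6 at percentile 98.7 of all genes tested. In limma without the variance trend, its adjusted p was 6.59e-05. ORC1 (ENSG00000085840.8; chromosome 1, 52838501 to 52870131), the ORC subunit whose abundance varies with the cell cycle, had 602, 658 and 704 normalised counts with NMS-873, against 1069.5, 1023 and 1016 with DMSO. Its groups did not overlap either, in the opposite direction, at a log2 fold change of -0.66 (SE 0.0629, adjusted p = 2.28e-20). For ORC1, limma without the variance trend gave an adjusted p of 0.00106.

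The other ORC subunits did not follow ORC1 uniformly. ORC5 (chromosome 7, 103766788 to 103848495), an ATP-binding subunit, had 779.9, 875 and 901 normalised counts with NMS-873, against 1130.2, 1046 and 1104.5 with DMSO, with no overlap (log2 fold change -0.36, SE 0.0610, adjusted p = 8.26e-08). ORC2, ORC3, ORC4 and ORC6, the remaining subunits, did not pass, at log2 fold changes of -0.04, 0.09, -0.11 and 0.10. Of these, ORC3 and ORC6 rose after scaling to the genes (0.19 and 0.21, adjusted p = 0.00127 and adjusted p = 2.83e-04), so a count of ORC genes in either direction depends on the scale while the falls of ORC1 and ORC5 kept their call under each scaling tried. CDT1 (chromosome 16, 88869621 to 88875666), the partner of CDC6 in loading, whose protein is a known VCP substrate, had 1231, 1243 and 1343 normalised counts with NMS-873 and 1267, 1194 and 1349.6 with DMSO. Its transcript groups overlapped, and the 95% interval of its log2 fold change ran from -0.11 to 0.12; scaled to the genes it was at 0.11 (adjusted p = 0.0385). GMNN, which encodes geminin, the inhibitor of CDT1, did not pass (log2 fold change -0.12, adjusted p = 0.0848). Of the 9 licensing genes, 1 rose and 2 fell, where 14.9% of all genes rose and 33.0% fell. Their median change on the log2 scale was -0.04, against -0.10 over all genes tested.

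**Figure D2:**
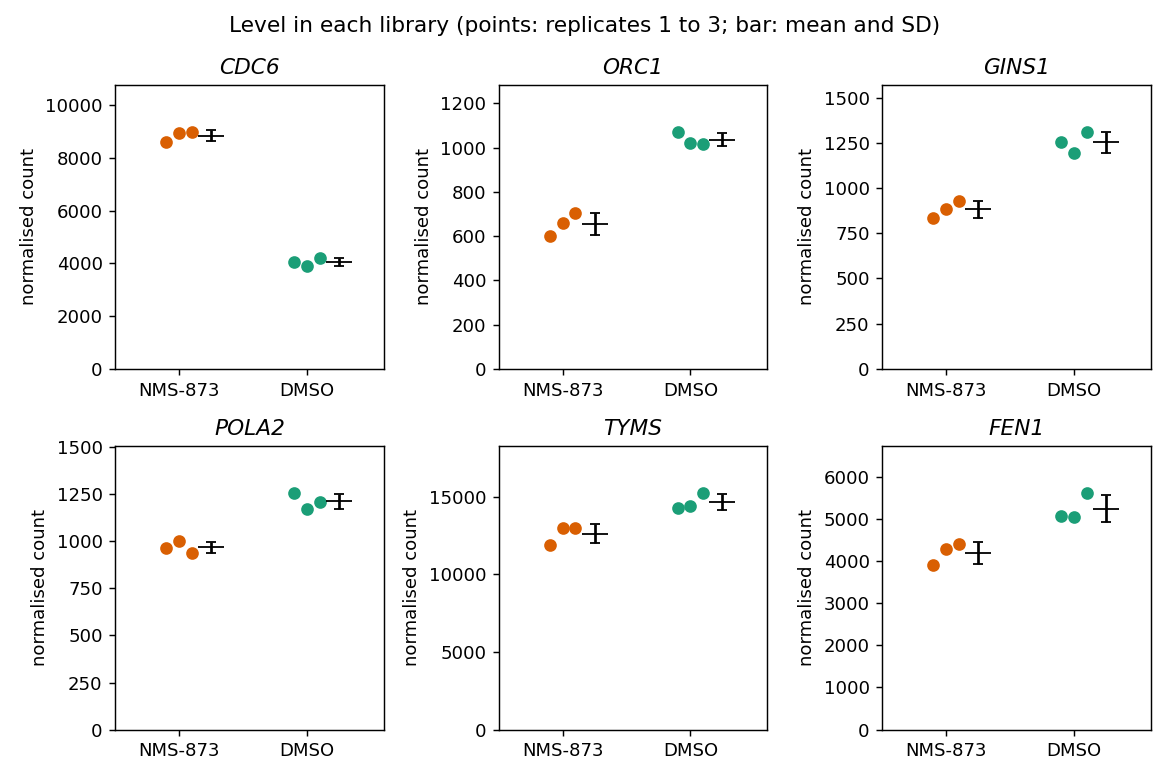
Normalised counts in each library for CDC6, ORC1, GINS1, POLA2, TYMS and FEN1, with NMS-873 left of DMSO, points for replicates 1 to 3, and the mean with its SD beside them; each axis starts at 0. The groups do not overlap in any of the 6 panels, and in CDC6 alone among these 6 the NMS-873 points are the higher ones.

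Of the helicase genes, all 4 of GINS, MCM2, MCM4, MCM6 and MCM10 fell, while MCM3, MCM5, MCM7 and CDC45 did not pass. Of 12 genes of the MCM ring, GINS, CDC45 and MCM10, 8 fell and 0 rose in limma, also by unadjusted p under 0.05 and by voom, and the median change was -0.19 on the log2 scale; scaled to the genes, 6 fell and 2, MCM7 and CDC45, rose, with a median of -0.09. Over all genes tested, 33.0% fell and 14.9% rose on the deposited scale, and 20.9% fell and 25.3% rose when scaled to the genes. GINS1 (ENSG00000101003.8; chromosome 20, 25388363 to 25433264), also called PSF1, had 835, 883 and 928 normalised counts with NMS-873, against 1254, 1194 and 1308 with DMSO (log2 fold change -0.51, SE 0.0599, adjusted p = 4.17e-14). No library of either treatment reached into the range of the other. GINS2, GINS3 and GINS4, the other subunits of this 4-protein complex, fell less, with log2 fold changes of -0.25, -0.24 and -0.26 and adjusted p between 4.47e-05 and 8.00e-04. All 4 GINS genes were lower in every NMS-873 library than in any DMSO library, as were 37.2% of all genes tested. All 4 kept their fall under each scaling. Summed over the complex, GINS transcripts came to 44.8, 47.9 and 49.0 FPKM with NMS-873, against 56.7, 57.4 and 60.9 FPKM with DMSO. GINS2 overlaps GSE1 on the opposite strand, whose count was 64.5% of its own, and the sources used here do not say whether reads were counted by strand.

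The 6 genes of the MCM ring, which are present in equal number in the protein complex, were not equal in level or in change. MCM4 had 6374, 6976 and 6940.5 normalised counts with NMS-873, against 7955, 7750.2 and 8291 with DMSO, and its groups did not overlap (log2 fold change -0.24, SE 0.0552, adjusted p = 7.87e-05). MCM2 was at -0.22 (adjusted p = 3.18e-04) and MCM6 at -0.16 (adjusted p = 0.00759). MCM6 no longer passed when scaled to the genes (adjusted p = 0.186), without DMSO replicate 3 (adjusted p = 0.0543) or without the variance trend (adjusted p = 0.0507). MCM3 and MCM5 stood at -0.10 each, the level of the median gene, and did not pass. MCM7, the subunit that is ubiquitylated when CMG is removed, had 11116, 11626 and 11399 normalised counts with NMS-873 and 11386, 10884 and 11769 with DMSO. These overlapped, and the interval of its log2 fold change ran from -0.11 to 0.12; scaled to the genes MCM7 was at 0.11 (adjusted p = 0.00767). Per length, MCM7 was the highest of the 6, at 119 ± 2.66 FPKM with NMS-873 and 118 ± 4.63 FPKM with DMSO (SD, n = 3 each), and MCM5 the lowest, at 30.6 ± 0.386 FPKM with NMS-873 and 32.8 ± 1.61 FPKM with DMSO. MCM2 overlaps TPRA1 on the opposite strand, whose count was 9.26% of its own.

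CDC45, the third part of CMG, did not pass, with a log2 fold change of 0.05 (adjusted p = 0.478). MCM10, which helps activate the helicase, had 2296, 2522 and 2439 normalised counts with NMS-873, against 2695, 2520 and 2742 with DMSO. Its groups overlapped, and its fall was the weakest of the calls (log2 fold change -0.13, SE 0.0544, adjusted p = 0.0340). It kept this call under 8 of 17 alternatives. Scaled to the genes its log2 fold change was -0.03 (adjusted p = 0.552), and it did not pass without a count minimum (adjusted p = 0.0671), on log2(FPKM + 0.1) (adjusted p = 0.0619) or without the variance trend (adjusted p = 0.139). The call was also lost when NMS-873 replicate 1 (adjusted p = 0.140), NMS-873 replicate 3 (adjusted p = 0.0507), DMSO replicate 1 (adjusted p = 0.140) or DMSO replicate 3 (adjusted p = 0.127) was left out, and MCM10 is the single member whose call differs from the authors' deposited table, where its adjusted p is 0.0514. For the other 47 members the calls were alike, with 2 rises and 17 falls in the authors' deposited table. Among all 16563 genes with an adjusted p there, 1857 rose and 3644 fell by the same threshold.

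**Figure D3:**
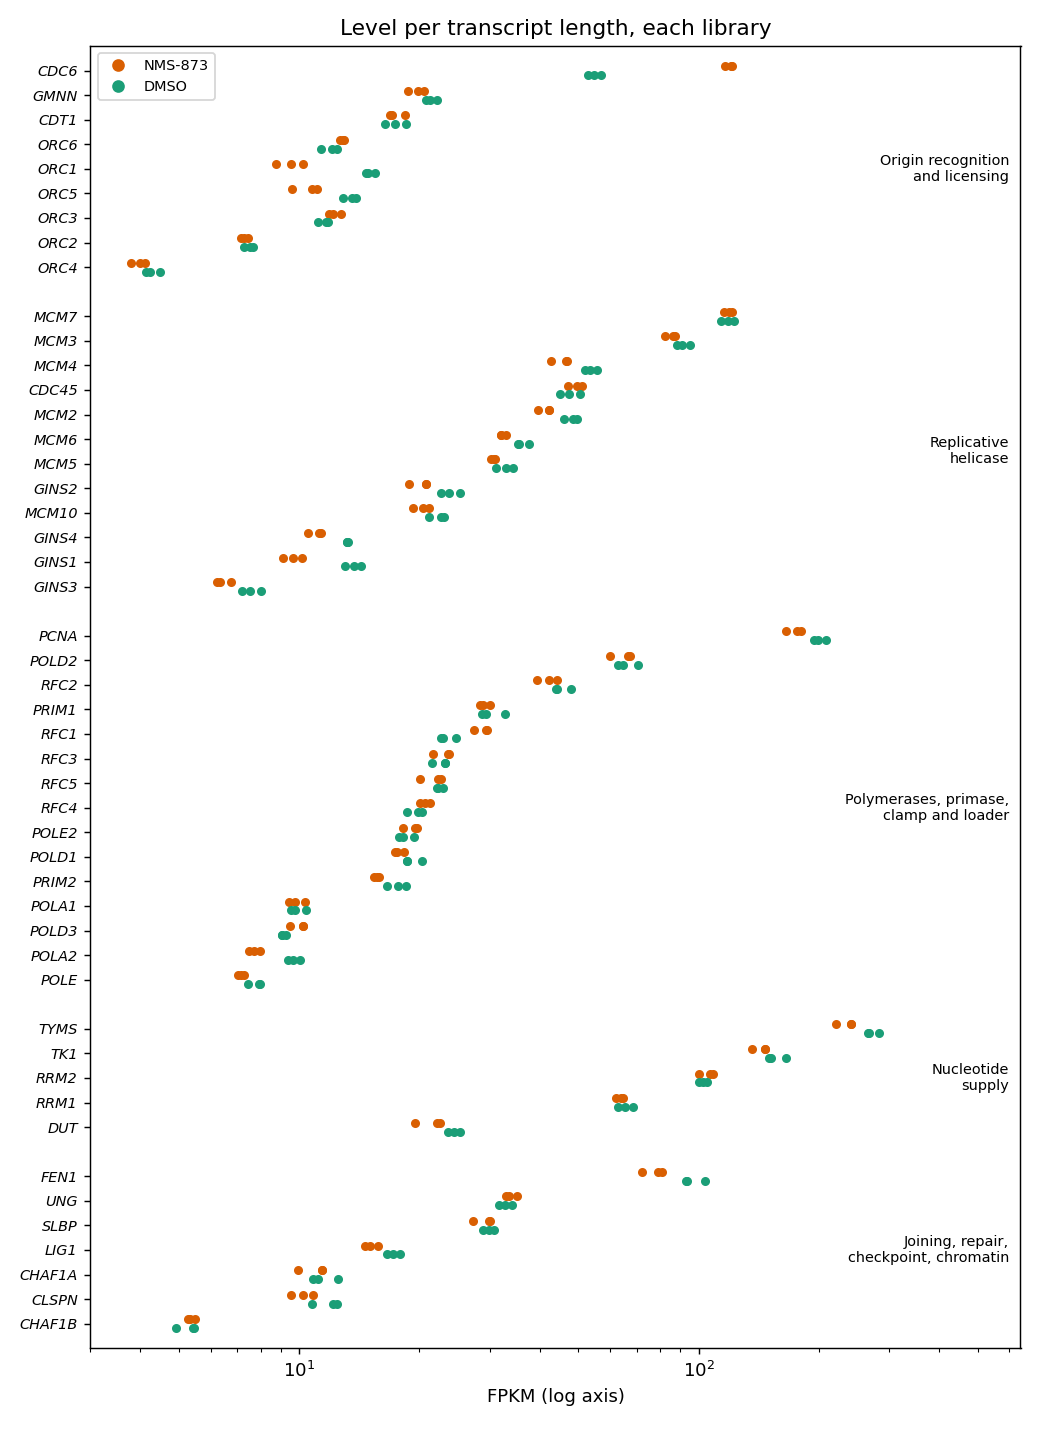
FPKM of each gene in each library on a log axis, ordered by mean level within a role, with NMS-873 drawn above DMSO. TYMS, PCNA and TK1 are the highest levels on the plot, ORC4 is the lowest, and the CDC6 points of the 2 treatments are the most widely separated.

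Among polymerase, primase, clamp and loader genes, changes went both ways. Of 15 genes 1 rose and 3 fell, where 14.9% of all genes rose and 33.0% fell. The median change was -0.05 on the log2 scale. Scaled to the genes 5 rose and 2 fell, where 25.3% of all genes rose and 20.9% fell, and the median was 0.05. POLA2 (ENSG00000014138.4; chromosome 11, 65029233 to 65073060), the regulatory subunit of polymerase alpha, which starts each new strand, had 961, 998 and 938 normalised counts with NMS-873, against 1255, 1172 and 1205 with DMSO. All NMS-873 libraries were below all DMSO libraries (log2 fold change -0.33, SE 0.0593, adjusted p = 7.27e-07). POLA1, the catalytic subunit of the same enzyme, was at -0.01 and overlapped, with an interval from -0.12 to 0.10. Of the primase pair, PRIM2 fell (log2 fold change -0.17, adjusted p = 0.00913) and PRIM1 did not pass (-0.06). The fall of PRIM2 was lost when scaled to the genes (adjusted p = 0.20), without DMSO replicate 3 (adjusted p = 0.0764) and without the variance trend (adjusted p = 0.0673).

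RFC1 (ENSG00000035928.10; chromosome 4, 39289076 to 39367995), the large subunit of the clamp loader, was the other gene that rose, with 4019.9, 4295 and 4327 normalised counts with NMS-873, against 3327, 3362 and 3628 with DMSO. The NMS-873 libraries were all above the DMSO libraries (log2 fold change 0.29, SE 0.0538, adjusted p = 8.49e-07). The small subunits RFC2, RFC3, RFC4 and RFC5 did not pass and lay between -0.11 and 0.08. RFC4 and RFC5 overlap EIF4A2 and WSB2 on the opposite strand, which had 643% and 199.7% of their counts. PCNA, the clamp that RFC loads, had 5315, 5681 and 5816 normalised counts with NMS-873, against 6382, 6243 and 6689 with DMSO, without overlap (log2 fold change -0.20, SE 0.0545, adjusted p = 0.00103). The leading and lagging strand polymerases did not pass: POLE was at -0.12 (adjusted p = 0.0540), POLE2 at 0.05, POLD1 at -0.11, POLD2 at -0.03 and POLD3 at 0.13 (adjusted p = 0.0515). POLD3, an accessory subunit of polymerase delta, had 1144, 1231 and 1232 normalised counts with NMS-873, against 1114, 1088 and 1087 with DMSO, which did not overlap; it passed without NMS-873 replicate 1 (adjusted p = 0.0143) and when scaled to the genes (adjusted p = 4.76e-05).

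Nucleotide supply genes included TYMS and TK1, which were among the 3 highest members per length under both treatments. TYMS averaged 234 ± 11.6 FPKM with NMS-873 and 271 ± 9.59 FPKM with DMSO, and TK1 143 ± 6.12 FPKM with NMS-873 and 156 ± 8.54 FPKM with DMSO (SD, n = 3 each). Of 5 genes 0 rose and 2 fell, and the median change was -0.12 on the log2 scale, against -0.10 over all genes tested. Scaled to the genes 1, RRM2, rose and 1, TYMS, fell. Over all genes tested, 33.0% fell and 14.9% rose, and scaled to the genes 20.9% fell and 25.3% rose. At an unadjusted p under 0.05, 0 rose and 3 fell, the additional gene being TK1, and voom gave 0 rises and 2 falls. TYMS (ENSG00000176890.11; chromosome 18, 657604 to 673578), thymidylate synthase, had 11908, 13009 and 12982 normalised counts with NMS-873, against 14309, 14402 and 15248 with DMSO (log2 fold change -0.21, SE 0.0588, adjusted p = 0.00114). Its groups did not overlap; ENOSF1 on the opposite strand had 2.06% of its count. DUT, which removes dUTP and makes the precursor of thymidylate, was at -0.19 (adjusted p = 0.00194). Its call was lost when scaled to the genes (adjusted p = 0.0669) and without the variance trend (adjusted p = 0.0809). RRM2, the regulated subunit of ribonucleotide reductase, had 10842, 11559 and 11735 normalised counts with NMS-873 and 11098, 10850.0 and 11388 with DMSO. These overlapped, with an interval of its log2 fold change from -0.08 to 0.15, and RRM1, the large subunit, was at -0.04 with an interval from -0.15 to 0.06. TK1, the salvage kinase for thymidine, was at -0.12 (adjusted p = 0.0614).

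The remaining 7 genes act behind the fork or watch over it. Of these, 3 fell and 0 rose in limma, also by unadjusted p under 0.05 and by voom. Scaled to the genes 1 fell and 2 rose. Over all genes tested, 33.0% fell and 14.9% rose, and scaled to the genes 20.9% fell and 25.3% rose. FEN1 (ENSG00000168496.3; chromosome 11, 61560109 to 61564716), the nuclease that trims Okazaki fragments, had 3901, 4277.5 and 4392 normalised counts with NMS-873, against 5073, 5043 and 5611 with DMSO, without overlap (log2 fold change -0.32, SE 0.0544, adjusted p = 7.56e-08). LIG1, the ligase that seals the fragments, was at -0.18 (adjusted p = 0.00281), and CLSPN, which encodes the checkpoint mediator claspin, at -0.21 (adjusted p = 0.00166), although the groups of CLSPN overlapped. Both were lost when scaled to the genes (adjusted p = 0.0635 and adjusted p = 0.0622), while FEN1 kept its call (adjusted p = 2.00e-05). CLSPN was also lost without the variance trend (adjusted p = 0.0869). UNG, a uracil glycosylase, SLBP, the histone mRNA binding protein, and CHAF1A and CHAF1B, subunits of the chromatin assembly factor CAF-1, did not pass, at 0.04, -0.04, -0.08 and 0.03. FEN1 lies over FADS2 on the same strand, which had 79.4% of its count, and TMEM258 on the opposite strand, which had 18.5%. In all, 13 members overlap another gene with a mean count of at least 10, among them PRIM1 with NACA on the same strand (794% of its count), CHAF1A with UBXN6 on the opposite strand (129%) and CHAF1B with MORC3 on the same strand (86.1%), so the values of these genes are less certain.

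Relative to the median gene, the median log2 fold change was 0.06 for licensing, -0.09 for the helicase, 0.05 for polymerases with clamp and loader, -0.02 for nucleotide supply and 0.03 for the rest. The spread of these group medians between replicates was 0.02, 0.02, 0.03, 0.04 and 0.05 (SD, pooled over both treatments). On the deposited scale the helicase, licensing and polymerase groups lay beyond it and the other groups did not. It is a spread between libraries, not between genes, so it cannot show that a group differs from other genes. Single helicase genes, for example, ran from -0.51 to 0.05 in log2 fold change. The difference between groups was not tested. Scaling to the genes or to equal totals shifts all genes of a library alike and so cannot move these relative medians, apart from the pseudocount. After quantile normalisation, which can, they were 0.02 for licensing, -0.14 for the helicase, 0.00 for polymerases, -0.10 for nucleotide supply and -0.01 for the rest. The helicase was again the lowest, but licensing and polymerases then lay within the spread and nucleotide supply lay beyond it.

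**Figure D4:**
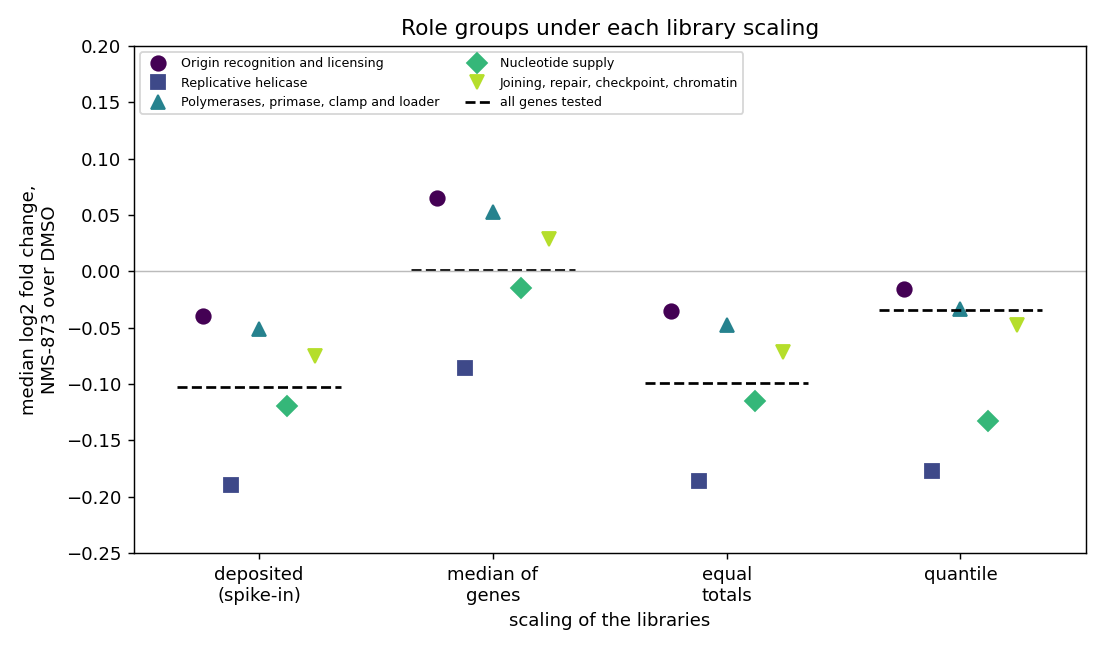
Median log2 fold change, NMS-873 over DMSO, of each role group under 4 scalings of the libraries, with the median of all genes tested as a dashed line. The helicase group (squares) is lowest in each column, at -0.19 on the deposited scale and -0.09 when scaled to the genes. The licensing, polymerase and strand joining groups are negative on the deposited scale and positive when scaled to the genes. The order of the groups can differ only in the quantile column, since the other scalings shift all genes alike.

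Within each treatment, most members had the same library lowest on the deposited scale. NMS-873 replicate 1 was the lowest of its 3 libraries for 40 of 48 members (83.3%, against 57.0% of all genes tested), and DMSO replicate 2 was the lowest of its 3 for 34 (70.8%, against 55.0%). Scaled to the genes, these counts were 25 (52.1%, against 37.0% of all genes) and 21 (43.8%, against 31.8%). All genes tested include means down to 10 normalised counts, against 594 for the lowest member, so this background is not matched for level. A replicate pattern particular to the members is therefore not shown. In 23 members all NMS-873 libraries were below all DMSO libraries and in 5 they were above, which is 47.9% and 10.4%, against 37.2% and 16.4% of all genes tested.

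Other genes of replication, were described from a list of 51 that shares no gene with the 48. Of these 4 rose and 26 fell, where 14.9% of all genes rose and 33.0% fell, and the median change was -0.13 on the log2 scale. Scaled to the genes 11 rose and 18 fell, where 25.3% of all genes rose and 20.9% fell. Without NMS-873 replicate 1 or without DMSO replicate 3, 7 rose, where 2406 and 2231 of all 14889 genes rose. Without any other library 2 rose, where 1870 to 1953 of all genes rose. The falls with the lowest adjusted p were those of CDC7, the kinase that fires licensed origins (log2 fold change -0.70, adjusted p = 5.11e-20), CCNA2, cyclin A2 (-0.52, adjusted p = 2.14e-17), ASF1B, a histone chaperone (-0.56, adjusted p = 5.64e-15), and DBF4B, an activator of CDC7 (-0.48, adjusted p = 3.18e-11). DBF4, the main activator of CDC7, did not pass (-0.09, adjusted p = 0.171). The rises were those of DTL, the adaptor that targets CDT1 for ubiquitylation (0.40, adjusted p = 1.92e-11), RRM2B, the p53-inducible subunit of ribonucleotide reductase (0.32, adjusted p = 9.76e-08), MCMBP, which binds MCM subunits (0.14, adjusted p = 0.0223), and CDC25A, a phosphatase that activates CDK2 (0.13, adjusted p = 0.0452). Cyclins CCNE1 and CCNE2 and their partner CDK2 did not pass, at -0.11, -0.01 and 0.00.

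RefSeq promoters were found for 44 of the 48 genes; MCM4, MCM5, POLD3 and GINS4 were not matched. An E2F motif, as spelled out above, stood in the promoter of 22 of these 44 (50%), against 6.68% of the 9985 tested genes with a promoter in the table and 3.31% of all 35116 promoters of this length. Genes with several starts counted once, for a match at any start. The motif was present in CDC6 but not RFC1, in 11 of 16 members that fell and in 10 of 26 that did not pass. CCAAT was found in 26 of the 44 (59.1%, against 43.1% of tested genes and 39.7% of all genes with a promoter), in 7 of 16 that fell and 17 of 26 that did not pass. The E-box CACGTG, the letters bound by MYC and its partner, stood in 7 (15.9%, against 12.5% and 8.77%), and CHR letters (TTTGAA or TTCGAA) in 4 (9.09%, against 15.7% and 19.5%). The cAMP response element TGACGTCA stood in 3 (6.82%, against 3.82% and 2.25%). Each motif was searched on both strands and apart from the others, so matches to different motifs may share bases, and a match is a description of letters, not a bound site.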

How the data were processed

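The mRNA of 6 U2OS libraries, 3 per treatment, was grouped by title. Per the submitters' processing notes, featureCounts 1.5.1, DESeq2 1.16.1 and build hg19 were used (aligner: not given in the sources used here). The authors deposited FPKM values per library, the mean normalised count per gene (a scaled read signal), and, from their own comparison, a log2 fold change with its adjusted p-value. The header names no unit for the library columns; the values behave as FPKM. Normalised counts were rebuilt as FPKM times the gene's mean normalised count over its mean FPKM; times the size factors of the 92 spike-in rows, 100% of values came within 0.001 of a whole read. Reads carry no molecular identifiers.

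A minimum of 10 on the mean normalised count left the genes fitted (14889 of 57820, all 48 members among them, at means of 594 to 13643). The fit used limma 3.58.1 (R 4.3.3) with an intensity trend and no covariate beside treatment, after log2(normalised count + 1); tests were two-sided, with Benjamini-Hochberg adjustment over all genes fitted. Fold changes are on that scale, with SE between 0.0537 and 0.0677 for members. The fit was tested on simulated data. Per-library values are printed for members past the threshold with a log2 size of at least 0.4 and for the lowest adjusted p in each role; other members shown by library, and genes otherwise named, were chosen after their values were seen, except the up to 4 other replication genes of lowest adjusted p in each direction. The members and lists were chosen with earlier results of these data known. Alternatives were other scalings, pseudocounts, filters, no trend, voom, a replicate block and leaving out each library. Coordinates of genes are hg19, as deposited. Of the marker genes, 1 was not matched to a row.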

Additional observations from a re-analysis of the deposited data

How the results depend on the processing

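Of the 20 members called, 14 kept their call under all 17 alternatives (ORC1, ORC5, CDC6, MCM2, MCM4, GINS1, GINS2, GINS3, GINS4, POLA2, PCNA, RFC1, TYMS and FEN1), and 6 lost it under at least 1. After scaling to the genes 3760 genes rose and 3108 fell, 14 members and 11 other replication genes rose, and the median of the members was 0.0002. With equal totals 4 members and 8 other replication genes rose, and after quantile normalisation 6 and 8, where 2472 and 3083 of all genes tested rose. After quantile normalisation the medians relative to the median gene were 0.0188 for licensing, -0.14 for the helicase, 0.0012 for polymerases and -0.10 for nucleotide supply. The other replication genes that rose numbered 2 on log2(FPKM + 0.1), 2 without a count minimum and 2 without the variance trend, 7 with the replicate block, and 2 to 7 when a library was left out. Over all genes tested, 1995 rose on log2(FPKM + 0.1), 2144 of 27709 without a count minimum and 1801 without the variance trend. With the replicate block 2352 of all genes rose, and 1870 to 2406 when a library was left out. Leaving out a library gave relative medians of 0.0257 (without DMSO replicate 3) to 0.0854 for licensing and 0.0517 to 0.0852 (without DMSO replicate 3) for polymerases. Scaling to the genes without NMS-873 replicate 1, chosen after seeing the data, gave 3680 and 2998 genes, 13 members higher with a median of 0.0057, 13 other genes higher and 17 lower, and relative medians of 0.0395 for licensing and 0.0810 for polymerases; POLD2 was then called higher, at 0.10, against -0.03. Apart from the scaling itself, the cause was not tested. With the replicate number as a block, 3 members rose and 21 fell, and 2352 genes rose and 5255 fell. Without the variance trend 2 members rose and 13 fell, and 1801 genes rose and 3706 fell. Deviations of the 3 like-numbered pairs of libraries from the treatment means correlated by 0.039, -0.025 and 0.042 over genes. Pairs with unlike numbers ran from -0.072 to 0.035. Such deviations also carry counting error, so they cannot settle whether like-numbered libraries were prepared as pairs. The lowest mean of a member was 594 normalised counts, and the part of counting error in the spread of members was not estimated.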
